A study of Mus musculus with 12 samples.

Results

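The lysosome breaks down material that microglia, the resident macrophages of the brain, take up or recycle. Its limiting membrane is protected by glycosylated proteins such as Lamp1 and Lamp2, and its lumen holds acid hydrolases that each act on a class of substrate. Tfeb, Tfe3 and Mitf belong to the MiT/TFE family of transcription factors, which bind the CLEAR element around the hexamer CACGTG in the promoters of many lysosomal genes. Nutrient signalling at the lysosomal surface through mTORC1 holds these factors in the cytoplasm in an inactive state. Inherited loss of single hydrolases causes storage diseases, many of which affect the brain.

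Described here are 41 of the 46262 genes in the deposited table, matched by symbol to a list of lysosomal genes. No measured value enters that rule, but the list was drawn up with earlier results of these data known. They comprise a class of 8 membrane proteins, 30 hydrolases, luminal cofactors and cholesterol export proteins (among them Npc1, itself a membrane protein) and the 3 MiT/TFE factors. Cathepsins and the proton pump were left out of the members and appear only as comparison lists. The 38 genes other than the factors were sorted by substrate class, with 5 for sterols, lipid esters and phospholipids, 9 for sphingolipids, 7 for glycosaminoglycans, 5 for glycoproteins and glycogen and 4 for proteins and acyl-proteins, besides the 8 membrane proteins. Each symbol matched 1 gene, and all 41 passed the minimum for testing, which was 1 TPM in 3 libraries.

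RNA was measured in primary wild-type mouse microglia from mixed glial cultures of forebrain or cerebellum, exposed to CSF-1 (20 ng/ml) or to IL-34 (100 ng/ml) for 24 hours. Each combination of region and ligand was a group of 3 libraries, made from independent cultures, which gives 4 groups. Both cytokines signal through the receptor Csf1r, which microglia need to survive. No group was left without a ligand and the doses differed, so ligand and dose cannot be told apart. The deposited table is named as one of neonatal microglia, the labels give no strain, and the cells had grown with other glia before the ligand was added.

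Values are TPM, a transcript's share of its library after correction for length, scaled to a total of 1000000 and summed here per gene. The scaling removes the read depth, which is therefore unknown. The libraries had 11740 to 11904 genes at 1 TPM or more. The 12 microglial markers were all detected, with a summed level of 10854 to 14274 TPM over the 12 libraries, although Tyrobp was listed at 0 in 3 of them. The homeostatic markers P2ry12 (7.10 to 11.7 TPM) and Tmem119 (7.15 to 20.4 TPM) were low. P2ry12 was at 9.93 to 11.7 TPM in forebrain and 7.10 to 9.81 TPM in cerebellum. Tmem119 was at 7.15 to 9.91 TPM in forebrain and 17.75 to 20.4 TPM in cerebellum. For neither gene did the regions overlap, and the directions were opposite. The libraries also differed in the shortest transcripts they hold. The length floor, which is the 1st percentile of length among transcripts at 5 TPM or more, was 503, 491 and 580 nt in cerebellum with IL-34, below the 592 to 669 nt of the other 9 libraries. Transcripts under 600 nt took 2.58, 3.31 and 0.947% of TPM there and 0.0269 to 0.555% elsewhere. The members' mean transcript lengths lay between 1191 and 5233 nt, with a median of 2622 nt. Libraries of a group are separate cultures, and the p-values below measure the spread between them.

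The promoters of 6 members are shown, chosen from the 10 that hold the CACGTG hexamer. The levels of these 6 genes are described below, as are those of some holders not shown, such as Cln3. RefSeq windows (GRCm38.p6, 250 bases before to 50 after an annotated start) were matched by symbol for 37 members, and the 250 bases before the start are printed 5′ to 3′ on the gene's own strand. Capitals mark CACGTG and, where the flanks fit, the longer forms GTCACGTG and TCACGTGA, read on either strand.
Gla (chrX:134601006-134601255, minus strand): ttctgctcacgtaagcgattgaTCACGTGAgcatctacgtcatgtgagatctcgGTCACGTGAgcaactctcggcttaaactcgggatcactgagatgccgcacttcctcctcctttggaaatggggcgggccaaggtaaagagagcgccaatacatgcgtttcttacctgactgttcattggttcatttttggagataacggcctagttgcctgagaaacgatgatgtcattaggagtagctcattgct
Naglu (chr11:101069844-101070093, plus strand): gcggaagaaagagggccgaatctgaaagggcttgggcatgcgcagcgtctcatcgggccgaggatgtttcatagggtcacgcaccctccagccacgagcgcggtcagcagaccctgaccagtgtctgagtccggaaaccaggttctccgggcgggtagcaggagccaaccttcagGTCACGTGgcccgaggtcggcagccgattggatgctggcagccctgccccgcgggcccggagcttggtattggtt
Sgsh (chr11:119355511-119355760, minus strand): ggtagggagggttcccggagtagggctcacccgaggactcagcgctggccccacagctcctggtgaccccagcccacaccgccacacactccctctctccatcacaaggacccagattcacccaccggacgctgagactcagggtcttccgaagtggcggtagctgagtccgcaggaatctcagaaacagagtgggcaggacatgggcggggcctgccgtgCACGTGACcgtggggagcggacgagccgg
Gaa (chr11:119267713-119267962, plus strand): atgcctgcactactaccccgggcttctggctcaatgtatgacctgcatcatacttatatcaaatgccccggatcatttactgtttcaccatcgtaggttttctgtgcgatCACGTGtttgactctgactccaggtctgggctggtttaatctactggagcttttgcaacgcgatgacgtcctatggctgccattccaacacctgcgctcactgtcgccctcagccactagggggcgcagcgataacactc
Lamp1 (chr8:13158911-13159160, plus strand): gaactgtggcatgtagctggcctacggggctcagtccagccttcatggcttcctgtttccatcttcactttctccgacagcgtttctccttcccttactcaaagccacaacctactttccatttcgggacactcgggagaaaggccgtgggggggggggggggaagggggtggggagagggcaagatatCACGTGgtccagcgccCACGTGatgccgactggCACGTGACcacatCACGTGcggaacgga
Mcoln1 (chr8:3500269-3500518, plus strand): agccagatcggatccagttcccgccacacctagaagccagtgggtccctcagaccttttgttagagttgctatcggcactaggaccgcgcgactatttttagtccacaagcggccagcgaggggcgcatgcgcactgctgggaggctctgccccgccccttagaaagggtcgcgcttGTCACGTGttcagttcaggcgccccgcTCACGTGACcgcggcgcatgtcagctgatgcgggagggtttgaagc

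Of the 37 members with a window, 10 held CACGTG (27%), against 8.09% of all 27025 genes with a window and 12.1% of the 8996 tested genes with a window. Those 10 were Lamp1, Mcoln1, Cln3, Gla, Glb1, Arsa, Naglu, Sgsh, Gaa and Dpp7. GTCACGTG occurred in 8 members (21.6%), against 2.55% of all and 5.05% of tested genes. TCACGTGA occurred in 4 (10.8%), against 1.12% and 2.27%. The 3 searches overlap, since CACGTG is part of both longer forms, and both strands were read. Lamp1 held 4 copies, the farthest of them beginning 61 bases before its start. In Gla the 2 copies began 227 and 194 bases before the start. None of the windows of Tfeb, Tfe3 or Mitf held the hexamer, which says only that these letters are not in those windows.

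The members as a whole were abundant and steady in these cells. Together they held 1.98 to 2.25% of each library's TPM. The median member varied by 4.93% between libraries of a group (pooled coefficient of variation), against 10.6% for the median tested gene, and the members ranged from 2.78% for Gusb to 18.1% for Mcoln1. The tested genes include 4414 with a mean under 10 TPM. The 2 medians were not matched for level, so the steadiness is not shown to be particular to lysosomal genes. By mean TPM, Grn ranked 16th and Psap 19th among 11900 genes, followed by Cd68 at 24th, Lamp1 at 34th, Laptm5 at 65th and Hexa at 90th. At the other end Mitf ranked 6185th and Sgsh 7859th.

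Membrane proteins took 38.3% of the members' TPM. Cd68 (GRCm38 chr11:69664213-69666153), a macrophage glycoprotein of the Lamp family, was the highest of them. Its level was 2834, 2626 and 2735 TPM in forebrain with CSF-1 and 2898, 2949 and 2884 TPM in forebrain with IL-34. In cerebellum it was 2867, 2759 and 2707 TPM with CSF-1 and 3026, 3237 and 3122 TPM with IL-34. Within each region every IL-34 library was above every CSF-1 library. Lamp1, the main structural glycoprotein of the membrane, lay at 2074 to 2434 TPM over the 12 libraries. Laptm5, a membrane protein of haematopoietic cells, lay at 1338 to 1588 TPM. Scarb2, the receptor that carries glucocerebrosidase to the lysosome, was the lowest of this class at 52.5 to 63.0 TPM.

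The 9 sphingolipid genes took 23.9% of the members' TPM, most of it from Psap, the precursor of the saposin cofactors. Psap stood at 2712, 3024 and 2766 TPM in forebrain with CSF-1 and 3139, 3189 and 2768 TPM with IL-34. In cerebellum its level was 2895, 3211 and 3034 TPM with CSF-1 and 2904, 3527 and 3289 TPM with IL-34. The ligand groups overlapped in both regions. The other genes of this class ranged from Hexa, the alpha subunit of beta-hexosaminidase, at 955 to 1200.3 TPM, to Smpd1, the acid sphingomyelinase, at 28.8 to 34.9 TPM and Arsa, the sulfatase that acts on sulfatide, at 28.2 to 36.8 TPM.

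The 4 genes of protein and acyl-protein turnover took 21.4%, led by Grn, which encodes progranulin. Grn levels were 3221, 3571 and 3736 TPM in forebrain with CSF-1 and 4102, 3753 and 3599.9 TPM with IL-34, and 3716, 3527 and 3322 TPM in cerebellum with CSF-1 and 3538, 3211 and 3269 TPM with IL-34. These groups overlapped, apart from forebrain with IL-34, which lay above cerebellum with IL-34. The 5 sterol, lipid ester and phospholipid genes took 7.76%. Lipa, the acid lipase that frees cholesterol from its esters, led them at 844, 809.9 and 844 TPM in forebrain with CSF-1 and 922, 841 and 855 TPM with IL-34. In cerebellum Lipa was at 950.4, 885 and 884 TPM with CSF-1 and 853, 901 and 931 TPM with IL-34, and the ligand groups overlapped in both regions.

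Glycosaminoglycan enzymes took 4.25%, glycoprotein and glycogen enzymes 3.25% and the MiT/TFE factors 1.07%. Gusb (GRCm38 chr5:129989011-130003049), beta-glucuronidase, was the highest glycosaminoglycan enzyme. Its level was 543, 556 and 543 TPM in forebrain with CSF-1 and 579.7, 534 and 559 TPM with IL-34, and 506, 508 and 499 TPM in cerebellum with CSF-1 and 491, 477 and 509.6 TPM with IL-34. Each cerebellar library was below each forebrain library given the same ligand. Man2b1, the lysosomal alpha-mannosidase, led the glycoprotein class at 260.4, 277 and 274 TPM in forebrain with CSF-1 and 308, 277 and 276 TPM with IL-34. In cerebellum Man2b1 was at 291, 291 and 269 TPM with CSF-1 and 289.6, 291 and 286 TPM with IL-34. Summed over all members, TPM was 19825 to 20712 in forebrain with CSF-1 and 20921 to 22541 with IL-34, which did not overlap. In cerebellum the sums were 20566 to 21284 with CSF-1 and 21301 to 21832 with IL-34, apart by a narrow margin. The share of the library taken by all members was thus higher in every IL-34 library than in every CSF-1 library of its region. In cerebellum, however, 21 members had a log2 difference (IL-34 minus CSF-1) above 0 and 20 below 0. The sums include transcripts under 1000 nt. In cerebellum those of Tpp1 averaged 144 TPM with CSF-1 and 305 TPM with IL-34, and those of Grn 392 and 493 TPM. Among members that went the other way, those of Dpp7 averaged 65.8 and 35.7 TPM. The part of such transcripts in the narrow cerebellar margin was not tested.

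**Figure D1:**
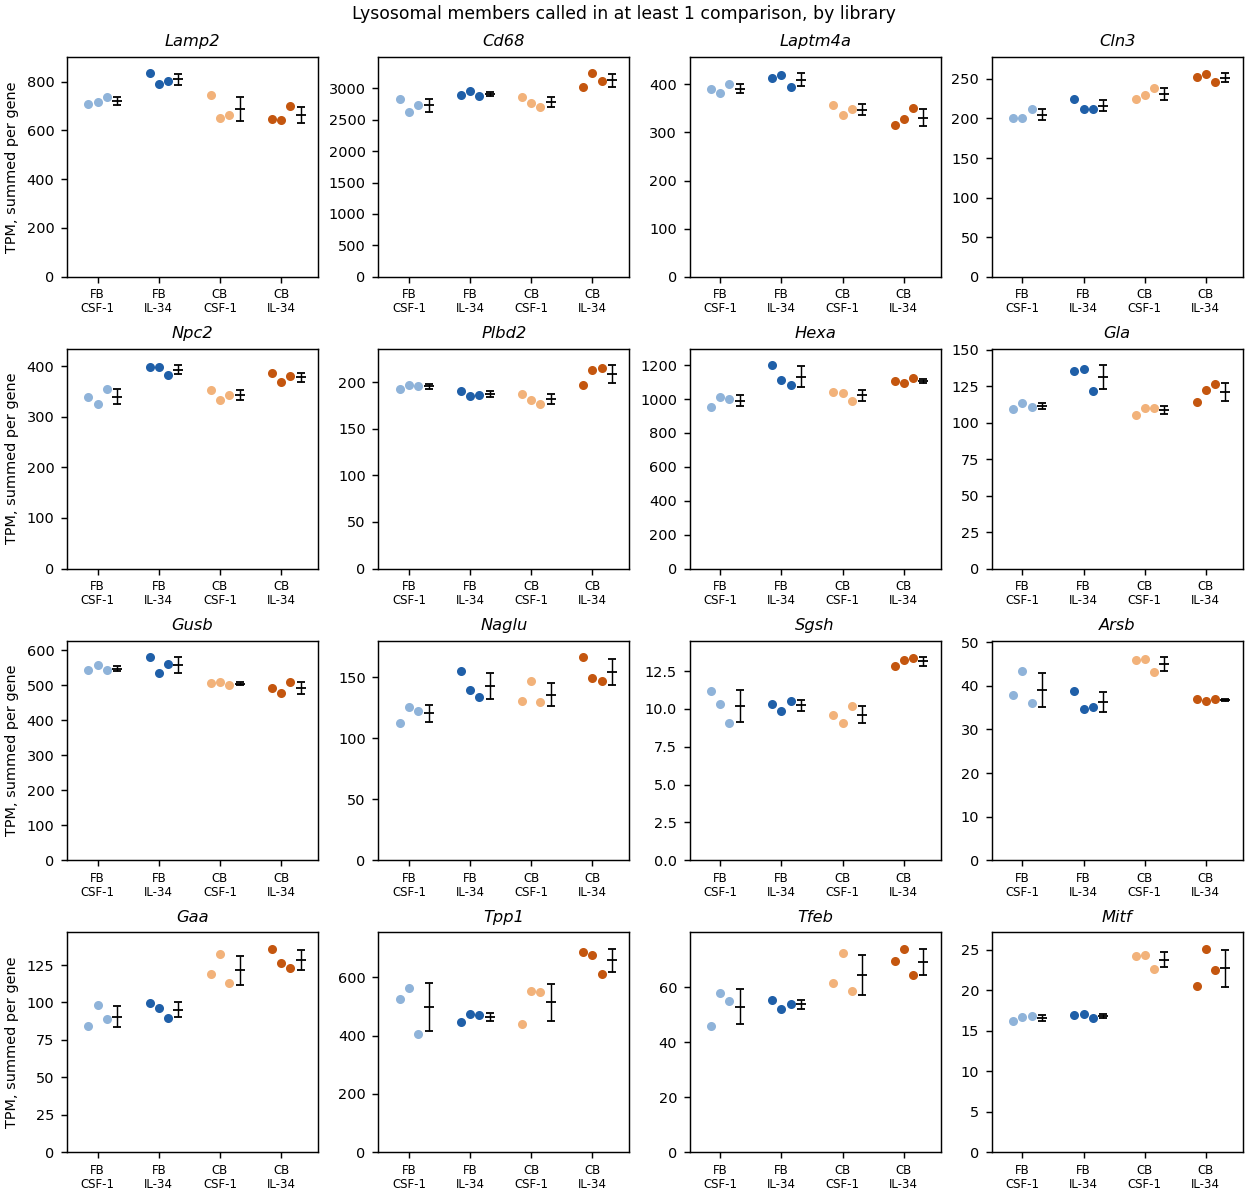
Levels of the 16 members called in at least 1 comparison, in TPM summed per gene, on axes that start at 0. Points are libraries, bars the mean ± SD (n = 3), and FB and CB stand for forebrain and cerebellum. Npc2, Hexa and Gla are higher with IL-34 in both regions, and Gaa and Mitf are higher in cerebellum with either ligand.

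The first comparison asks whether IL-34 and CSF-1 leave microglia with different levels of lysosomal genes. Averaged over both regions, 7 of 41 members were called by limma at a Benjamini-Hochberg adjusted p under 0.05 (17.1%), against 13.4% of all 12419 genes tested. Of these, 6 were higher with IL-34 (14.6%), against 2.73% of all genes, and 1 was lower (2.44%), against 10.7%. The 6 were Cd68, Npc2, Hexa, Gla, Naglu and Sgsh, and the gene that fell was Arsb. Within a region the changes were small, the largest being a 1.33-fold ratio for Sgsh in cerebellum. The members' median log2 fold change was 0.056, against -0.070 for all genes tested. These differences are relative to the rest of each library's RNA, and fewer cells of a type and less RNA per cell cannot be told apart in bulk samples.

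Hexa and Gla act on glycolipids, and Npc2 carries cholesterol out of the lysosomal lumen. Npc2 (GRCm38 chr12:84754562-84773152) was at 339.8, 325 and 355 TPM in forebrain with CSF-1 and 398, 398 and 383 TPM with IL-34, and at 352, 332 and 344 TPM in cerebellum with CSF-1 and 386, 369 and 379.6 TPM with IL-34. Within each region all 3 IL-34 libraries were above all 3 CSF-1 libraries. Its mean log2 fold change was 0.18 ± 0.032 (SE; limma adjusted p = 0.00625), the smallest adjusted p of any member in this comparison.

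Hexa (GRCm38 chr9:59539540-59565109) read 955, 1015 and 1003 TPM in forebrain with CSF-1 and 1200.3, 1111 and 1083 TPM with IL-34. In cerebellum Hexa read 1043, 1035 and 987 TPM with CSF-1 and 1106, 1096 and 1122 TPM with IL-34, again with no overlap in either region. The mean difference was 0.15 ± 0.033 on the log2 scale (SE; limma adjusted p = 0.0134). Gla encodes alpha-galactosidase A, which removes the terminal galactose of globotriaosylceramide. Gla (GRCm38 chrX:134588149-134601125) was at 109.6, 113 and 110.4 TPM in forebrain with CSF-1 and 135, 136 and 122 TPM with IL-34, and at 105, 109.9 and 110.3 TPM in cerebellum with CSF-1 and 114, 122 and 126 TPM with IL-34. The groups did not overlap, and the mean log2 difference was 0.19 ± 0.04 (SE; limma adjusted p = 0.0112).

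Naglu and Sgsh both degrade heparan sulfate. Naglu (GRCm38 chr11:101070012-101077672) was at 113, 126 and 123 TPM in forebrain with CSF-1 and 155, 140.0 and 134 TPM with IL-34, and at 131, 147 and 130.2 TPM in cerebellum with CSF-1 and 167, 149.6 and 147 TPM with IL-34. In cerebellum the highest CSF-1 library and the lowest IL-34 library were almost level. The mean log2 difference of Naglu was 0.21 ± 0.054 (SE; limma adjusted p = 0.0255), called in 9 of 11 other settings and in 8 of the 12 fits with 1 library left out. Sgsh (GRCm38 chr11:119343425-119355536), the lowest member, was at 11.2, 10.3 and 9.09 TPM in forebrain with CSF-1 and 10.3, 9.84 and 10.5 TPM with IL-34. In cerebellum it was at 9.62, 9.05 and 10.2 TPM with CSF-1 and 12.8, 13.2 and 13.4 TPM with IL-34. The forebrain groups overlapped and the cerebellar groups did not, so that the mean of 0.21 ± 0.061 (SE; limma adjusted p = 0.0428) came from cerebellum. Leaving out each library in turn, the mean difference of Sgsh was called in 1 of 12 fits, and it held in 8 of 11 other settings. Cd68, whose levels stand above, had a mean log2 difference of 0.13 ± 0.03 (SE; limma adjusted p = 0.0182). The Cd68 call was lost without a filter (0.13), under quantile normalization, where the difference was 0.035, and with the most abundant transcript alone (0.17).

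Arsb (GRCm38 chr13:93771630-93943016), the sulfatase of dermatan and chondroitin sulfate, moved the other way. It was at 37.8, 43.4 and 36.0 TPM in forebrain with CSF-1 and 38.8, 34.7 and 35.2 TPM with IL-34, and at 45.8, 46.0 and 43.2 TPM in cerebellum with CSF-1 and 36.9, 36.6 and 36.9 TPM with IL-34. Only the cerebellar groups were apart, and the mean log2 difference was -0.19 ± 0.052 (SE; limma adjusted p = 0.034). This call held in 5 of 11 other settings and in 4 of the 12 fits with 1 library left out. It was lost without a filter (-0.19), under median-of-ratios scaling (-0.12) and quantile normalization (-0.14), with length and GC trends removed (-0.085), with the length floor (-0.20) and with the replicate block (-0.19). Ids, iduronate sulfatase, had a mean log2 difference of -0.22 ± 0.082 and was not called (SE; limma adjusted p = 0.0959).

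The split between higher and lower members depended on the scaling. With median-of-ratios scaling, which moved the median of all genes in the mean of both regions from -0.070 to 0.0006, 16 members were higher (39.0%, against 5.66% of all genes) and 0 lower (against 5.06%), beside 6 and 1 on the TPM scale. With quantile normalization 7 were higher (17.1%, against 3.81%) and 0 lower (against 5.92%). Npc2, Hexa and Gla were called in all 11 other settings and in all 12 fits with 1 library left out. The count of 7 fell to 3 without replicate 2 of forebrain with IL-34, and to 4 without replicate 1 of cerebellum with CSF-1 or replicate 1 of cerebellum with IL-34.

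Within forebrain, 0 of 41 members were called by limma, where 1.20% of all genes were, and 9 (22.0%) had an unadjusted p under 0.05, against 14.2% of all genes. All 9 were higher with IL-34. Npc2 came closest, with a log2 difference of 0.21 ± 0.045 (SE; limma adjusted p = 0.0536). Of the 41, 31 (75.6%, against 38.7% of all genes) had a log2 difference above 0, and the median was 0.038 against -0.042 for all genes. With median-of-ratios scaling the medians were 0.086 and 0.0009, and 6 members were called, namely Gla, Hexa, Lamp1, Lamp2, Npc2 and Scarb2, all higher with IL-34 (14.6%, against 1.13% of all genes higher under that scaling). No fit that left out 1 library called a member in forebrain.

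Within cerebellum, 4 of 41 members were called (9.76%), against 12.8% of all genes, so their share was near the background. Cd68, Plbd2 and Sgsh were higher with IL-34, which is 7.32% of the members against 3.00% of all genes. Arsb was lower, 2.44% against 9.82%. Sgsh had the largest difference, 0.41 ± 0.086 on the log2 scale (SE; limma adjusted p = 0.0151), a 1.33-fold ratio. Cd68 differed by 0.17 ± 0.043 (SE; limma adjusted p = 0.0296) and Arsb by -0.28 ± 0.074 (SE; limma adjusted p = 0.0334).

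Plbd2 (GRCm38 chr5:120483282-120503625) belongs to the phospholipase B-like family. It was at 192, 197 and 196 TPM in forebrain with CSF-1 and 191, 185 and 186 TPM with IL-34, and at 188, 181 and 177 TPM in cerebellum with CSF-1 and 197, 213 and 215 TPM with IL-34. The IL-34 libraries were the lower ones in forebrain and the higher ones in cerebellum. The cerebellar log2 difference was 0.19 ± 0.046 (SE; limma adjusted p = 0.0232), and the forebrain one, -0.061 ± 0.046 (SE), was not called. Of 12 other settings, the cerebellar call held in 8 for Plbd2, 7 for Cd68, 6 for Arsb and 11 for Sgsh. Under quantile normalization Cd68 in cerebellum differed by 0.028, and with the most abundant transcript alone Plbd2 differed by 0.11. That Plbd2 transcript, of 1453 nt and with 69.1% of the gene's TPM, is annotated as a retained intron form. The coding transcript of 4208 nt held 30.2%. In cerebellum the coding one was at 50.1, 52.1 and 48.45 TPM with CSF-1 and 50.3, 76.1 and 76.05 TPM with IL-34, which overlap.

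The length floor sets the IL-34 libraries of cerebellum apart from the other libraries. The short microglial marker Tyrobp was also higher there, at 1328 to 2138 TPM against 0 to 1088 TPM in the other 9 libraries. The 11 other microglial markers summed to 11404 to 12136 TPM there and 10854 to 11770 TPM elsewhere, which overlap. The part of these levels in the result was not tested. With the floor as a covariate 0 of the 4 calls remained, while 0.298% of all genes were called. The log2 differences in that fit were 0.20 for Cd68, 0.25 for Plbd2, 0.36 for Sgsh and -0.30 for Arsb, so the calls were lost with the differences about as large. Median-of-ratios scaling moved the all-gene median in cerebellum from -0.100 to -0.0017 and gave 13 members higher (31.7%, against 5.54% of all genes) and 0 lower (against 4.13%). Quantile normalization gave 5 higher (12.2%, against 3.63%) and 0 lower (against 5.83%). The members' median was 0.024, became 0.133 with median-of-ratios scaling and turned to -0.024 when only transcripts of 1000 nt or more were summed, where the all-gene median was -0.138. The count of 4 became 1, 0 and 2 without replicates 1, 2 and 3 of cerebellum with CSF-1, and 0 without replicate 2 of cerebellum with IL-34.

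**Figure D2:**
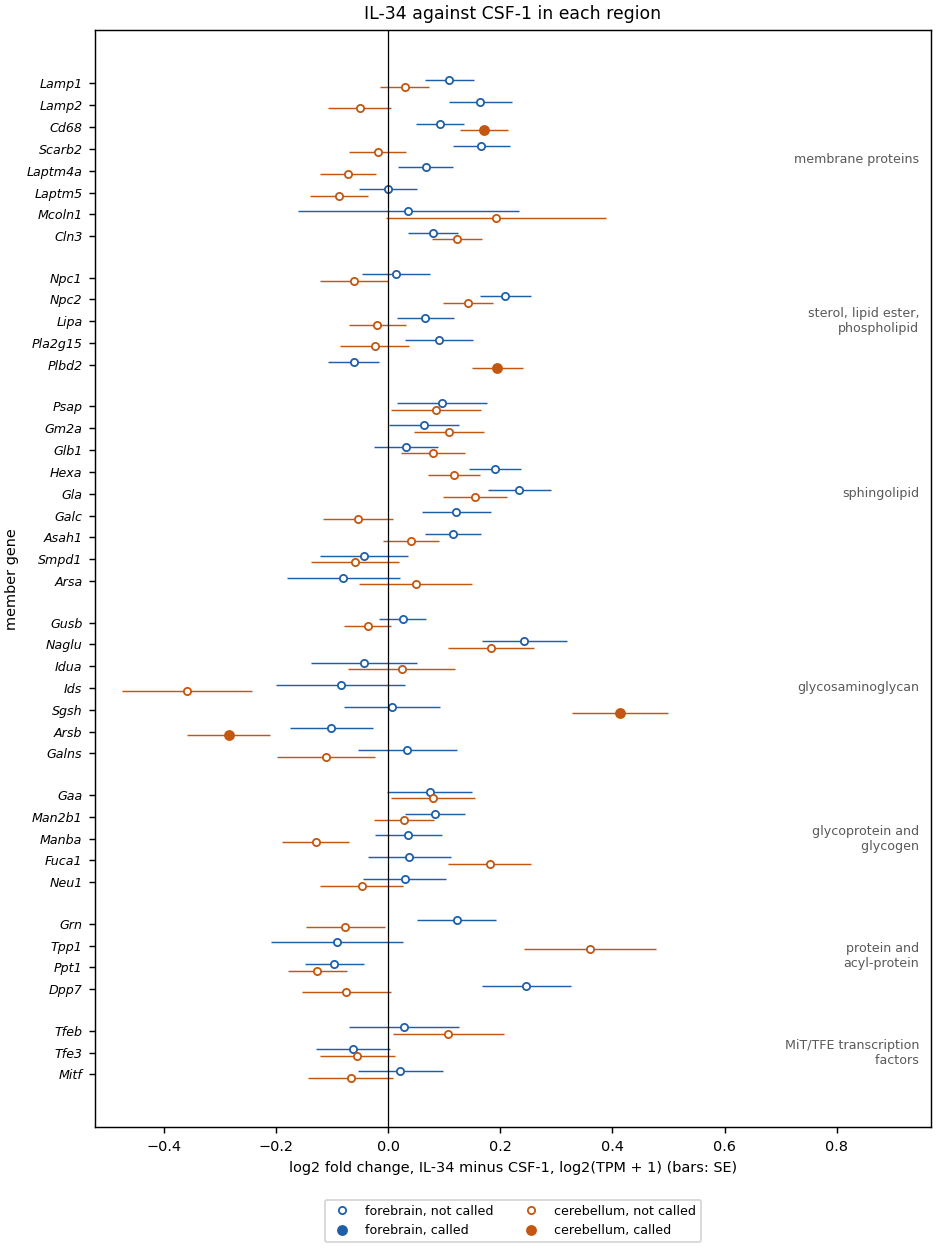
Log2 fold change of each member, IL-34 minus CSF-1, on the log2(TPM + 1) scale with SE bars, in forebrain (blue) and cerebellum (orange), ordered by class. Filled points are called; there are 0 in forebrain and 4 in cerebellum (Cd68, Plbd2, Sgsh and Arsb), and most forebrain points lie above 0.

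By class, averaged over both regions, 2 of 9 sphingolipid genes rose (Hexa and Gla), with a class median log2 difference of 0.078. For the 7 glycosaminoglycan enzymes, 2 rose and 1 fell around a median of -0.0092. In the 8 membrane proteins 1 (Cd68) and in the 5 sterol and lipid genes 1 (Npc2) rose, with medians of 0.072 and 0.034. None of the 5 glycoprotein and glycogen genes, the 4 protein and acyl-protein genes and the 3 MiT/TFE factors was called by limma. Of these classes 0, 1 and 0 genes had an unadjusted p under 0.05, against 29.8% of all genes. The 1 gene was Ppt1, which removes fatty acids from proteins, at -0.11 ± 0.038 (SE; limma adjusted p = 0.0752). Npc1, the membrane partner of Npc2 in cholesterol export, had a mean log2 difference of -0.023 with a 95% interval of -0.12 to 0.072.

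The MiT/TFE factors were not called between the ligands in either region. Tfeb (GRCm38 chr17:47737030-47792419) was at 45.8, 57.9 and 55.1 TPM in forebrain with CSF-1 and 55.4, 52.2 and 53.8 TPM with IL-34, and at 61.6, 72.5 and 58.8 TPM in cerebellum with CSF-1 and 69.5, 73.8 and 64.3 TPM with IL-34. Tfe3, the most abundant of the family here, was at 137, 149 and 156 TPM and 148, 136 and 138 TPM in forebrain with CSF-1 and IL-34, and at 154, 157 and 149.8 TPM and 161, 144 and 139.5 TPM in cerebellum. Mitf was at 16.2, 16.6 and 16.9 TPM and 16.9, 17.0 and 16.6 TPM in forebrain, and at 24.2, 24.3 and 22.7 TPM and 20.5, 25.1 and 22.5 TPM in cerebellum, in the same order of ligands. All 3 genes overlapped between ligands within each region. The 95% intervals of the mean log2 difference were -0.085 to 0.22 for Tfeb, -0.16 to 0.045 for Tfe3 and -0.14 to 0.10 for Mitf. RNA levels do not show where in the cell these factors were.

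Members with the hexamer in their promoter window can be set beside those without it. Averaged over both regions, 3 of the 10 holders were called, all higher with IL-34 (Gla, Naglu and Sgsh), with a median log2 difference of 0.094. Among the 27 members whose window lacked it, 3 rose and 1 fell, with a median of 0.024. Lamp1 and Mcoln1, which hold 4 and 2 copies, were not called, at 0.069 ± 0.031 (limma adjusted p = 0.164) and 0.11 ± 0.14 (adjusted p = 0.621). These are descriptions of small groups with no test between them.

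Whether the ligand difference itself differed between regions was tested as an interaction. Limma called 0 of 41 members, where 0.145% of all genes were called, and 6 members (Lamp2, Scarb2, Plbd2, Sgsh, Tpp1 and Dpp7) had an unadjusted p under 0.05. That is 14.6% of the members, near the 12.1% of all genes. Plbd2 had the smallest p, with a difference of log2 differences, cerebellum minus forebrain, of 0.26 ± 0.065 (SE; limma adjusted p = 0.211). Thus the calls in cerebellum that were not made in forebrain are not shown to differ between the regions. Every setting and every fit with 1 library left out also called 0 members.

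The second comparison asks whether microglia of the 2 regions differ in lysosomal genes when given the same ligand. Mitf and Gaa were higher in cerebellum with both ligands, from 1.32-fold to 1.41-fold. With CSF-1, 3 of 41 members were called (7.32%), all higher in cerebellum, against 6.71% of all genes in either direction, 3.29% higher and 3.42% lower. They were Mitf, Gaa and Cln3. Under median-of-ratios scaling the calls were 2 higher (Mitf and Gaa) and 2 lower (Gusb and Laptm4a). With IL-34, 10 were called (24.4%), against 13.5% of all genes. Of these, 7 were higher in cerebellum (17.1%, against 5.27%), namely Cln3, Plbd2, Sgsh, Gaa, Tpp1, Tfeb and Mitf, and 3 were lower (7.32%, against 8.22%), namely Lamp2, Laptm4a and Gusb. Libraries of the 2 ligands are separate, so these comparisons share no library, but each shares its groups with the ligand comparisons above.

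Mitf (GRCm38 chr6:97807052-98021349) is the family's melanocyte and osteoclast member and also acts in macrophages. Its 6 forebrain libraries lay at 16.2 to 17.0 TPM and its 6 cerebellar libraries at 20.5 to 25.1 TPM, with no overlap. The log2 difference was 0.49 ± 0.076 with CSF-1 (SE; limma adjusted p = 0.00309) and 0.40 ± 0.076 with IL-34 (SE; limma adjusted p = 0.00596). For Tfeb the log2 difference was 0.28 ± 0.098 with CSF-1 (SE), which was not called (limma adjusted p = 0.122), and 0.36 ± 0.098 with IL-34 (SE; limma adjusted p = 0.0356). In neither ligand did the Tfeb libraries of the regions overlap. The IL-34 call of Tfeb held in 8 of 12 other settings and in 7 of the 12 fits with 1 library left out, with a difference down to 0.12 when length and GC trends were removed. Tfe3 was not called, with log2 differences of 0.062 (95% interval -0.084 to 0.21) with CSF-1 and 0.07 (-0.077 to 0.22) with IL-34. The class median was 0.28 with CSF-1 and 0.36 with IL-34, against 0.031 and -0.020 for all genes.

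Gaa (GRCm38 chr11:119267887-119285454), the acid alpha-glucosidase that degrades glycogen, was at 84.5, 98.3 and 88.6 TPM in forebrain and 119, 132 and 113 TPM in cerebellum with CSF-1, and at 99.7, 96.0 and 89.9 TPM and 136, 126 and 123 TPM with IL-34. All 6 cerebellar libraries were above all 6 forebrain libraries. Its log2 difference was 0.42 ± 0.075 with CSF-1 (SE; limma adjusted p = 0.00728) and 0.43 ± 0.075 with IL-34 (SE; limma adjusted p = 0.00432). Mitf and Gaa with CSF-1 were called in all 12 other settings and all 12 fits with 1 library left out. Of the 4 other glycoprotein and glycogen genes none was called in either ligand.

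Cln3 (GRCm38 chr7:126571207-126585817) encodes the membrane protein lost in juvenile Batten disease. It was at 201, 200.0 and 212 TPM in forebrain and 224, 229.9 and 238 TPM in cerebellum with CSF-1, and at 224, 213 and 213 TPM and 252, 257 and 246 TPM with IL-34. The regions did not overlap with either ligand. The log2 difference was 0.17 ± 0.045 with CSF-1 (SE; limma adjusted p = 0.0417), called in 3 of the 12 fits with 1 library left out, and 0.22 ± 0.045 with IL-34 (SE; limma adjusted p = 0.00992). The CSF-1 call held in 7 of 12 other settings. Over these settings and the fits with 1 library left out, its log2 difference was 0.14 to 0.20. The IL-34 call held in 8 of 12 and in all 12 fits with 1 library left out. With transcripts of 1000 nt or more the IL-34 difference fell to 0.073 (limma adjusted p = 0.368), and with length and GC trends also removed it was 0.11. The IL-34 call was also lost with the length floor and with the most abundant transcript alone, at 0.21 in each.

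Against these, 3 members were lower in cerebellum with IL-34. Lamp2 (GRCm38 chrX:38401357-38456454), of which a splice form is the receptor of chaperone-mediated autophagy, was at 708, 719 and 739 TPM in forebrain and 746, 653 and 664 TPM in cerebellum with CSF-1, and at 834, 792 and 802 TPM and 646, 644 and 699.9 TPM with IL-34. The regions overlapped with CSF-1 and not with IL-34, where the log2 difference was -0.29 ± 0.056 (SE; limma adjusted p = 0.00731). Laptm4a (GRCm38 chr12:8921664-8938742), a small membrane protein of late endosomes and lysosomes, was at 389.6, 382 and 400.2 TPM in forebrain and 357, 335 and 349 TPM in cerebellum with CSF-1, and at 414, 420.1 and 394 TPM and 315, 327 and 350.5 TPM with IL-34. Its regions were apart with both ligands. The Laptm4a difference was -0.17 ± 0.05 with CSF-1 (SE; limma adjusted p = 0.0679) and -0.31 ± 0.05 with IL-34 (SE; limma adjusted p = 0.00285). Gusb differed by -0.18 ± 0.042 with IL-34 (SE; limma adjusted p = 0.0183) and by -0.12 ± 0.042 with CSF-1 (SE; limma adjusted p = 0.125), the latter not called.

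With IL-34, Sgsh differed by 0.33 ± 0.086 (SE; limma adjusted p = 0.0272) and Plbd2 by 0.15 ± 0.046 (SE; limma adjusted p = 0.048) between the regions. With CSF-1 both had values below 0 that were not called, -0.072 for Sgsh and -0.10 for Plbd2. Both share their cerebellar IL-34 libraries with the ligand calls above. Of the 12 fits with 1 library left out, the Plbd2 call held in 1 and the Sgsh call in 6. Of 12 other settings, the Plbd2 call held in 6, with a difference down to 0.080 when length and GC trends were removed. The Sgsh call held in 7, and its most abundant transcript alone differed by 0.088 (limma adjusted p = 0.591).

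The count of 10 with IL-34 fell to 6 without replicate 1 or replicate 3 of forebrain with IL-34, to 6 without replicate 1 of cerebellum with IL-34 and to 5 without its replicate 2. It was 0 with the length floor as a covariate, where 1.01% of all genes were called. In that fit the log2 differences of Mitf (0.42), Gaa (0.37), Cln3 (0.21) and Plbd2 (0.23) were within 1.5 times those reported, while Lamp2 was at -0.11, Laptm4a at -0.18 and Tpp1 at 0.072. Lamp2, Laptm4a, Gaa and Mitf with IL-34 were called in each of the other 11 settings and in all 12 fits with 1 library left out, Lamp2 with a difference of -0.10 once length and GC trends were removed. Markers of other cell types also moved with region, as did the microglial markers P2ry12 and Tmem119, whose levels stand above. The summed level of 8 astrocyte markers was 20.4 to 24.8 TPM in forebrain and 11.8 to 15.4 TPM in cerebellum, with 6 of 8 reaching 1 TPM in some library. The 8 oligodendrocyte lineage markers summed to 58.0 to 72.7 TPM in forebrain and 74.9 to 99.8 TPM in cerebellum, led by Mbp. The 8 mesenchymal and vascular markers summed to 8.63 to 13.9 TPM in forebrain and 4.46 to 6.47 TPM in cerebellum, with Cldn5 at 0 throughout. The 7 neuronal markers summed to 0.667 to 3.83 TPM over all libraries. The part of these cells, or of what P2ry12 and Tmem119 mark, in the regional results was not tested.

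**Figure D3:**
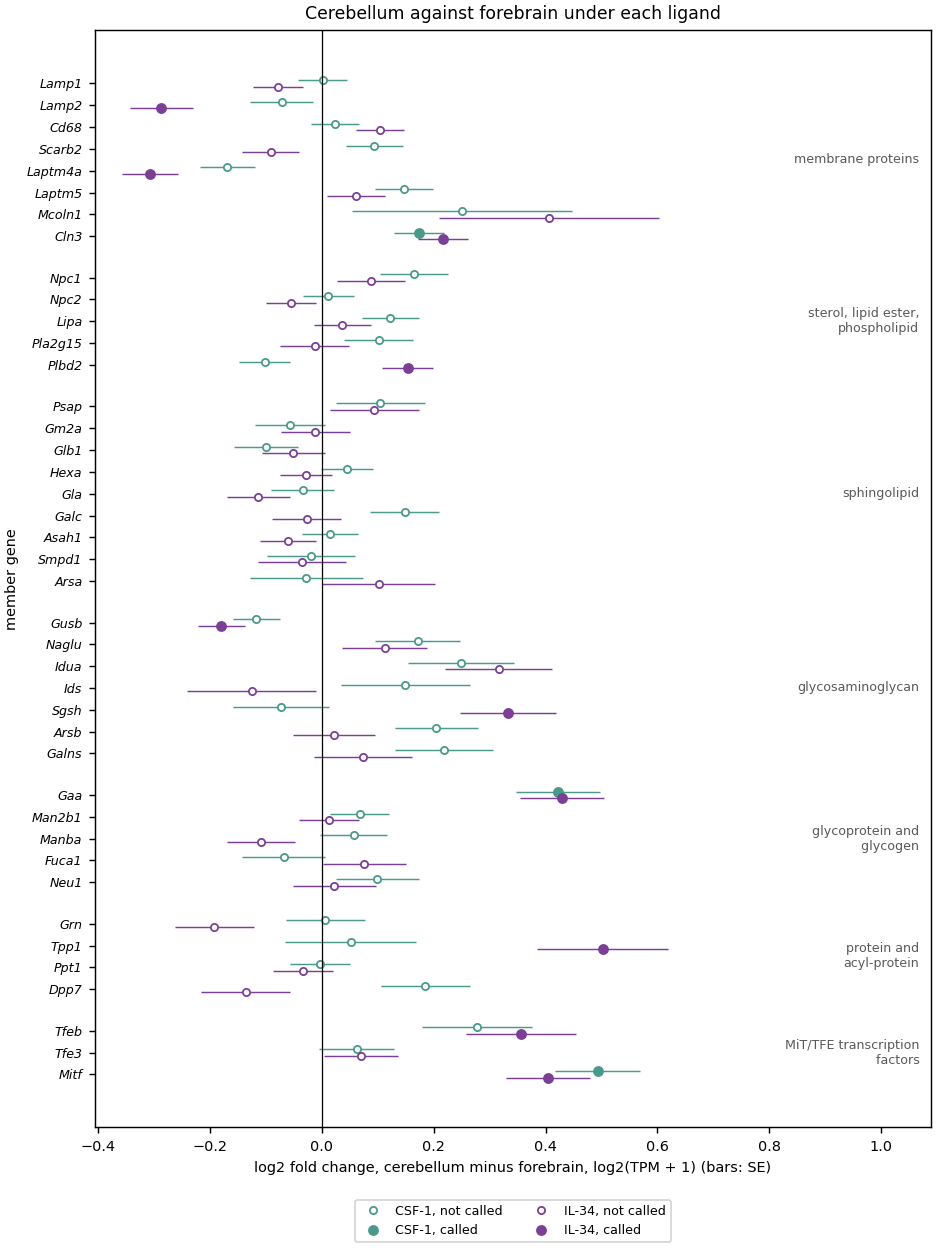
Log2 fold change of each member, cerebellum minus forebrain, on the log2(TPM + 1) scale with SE bars, with CSF-1 (green) and IL-34 (purple). Filled points are called, 3 with CSF-1 and 10 with IL-34; Gaa and Mitf are called with both, as is Cln3, whose IL-34 difference falls to 0.073 when only transcripts of 1000 nt or more are summed.

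Tpp1 (GRCm38 chr7:105744811-105752235), a lysosomal tripeptidyl peptidase, had the largest regional difference of any member with IL-34, 0.50 ± 0.12 on the log2 scale (SE; limma adjusted p = 0.0181). Its summed level was 526, 563 and 407 TPM in forebrain with CSF-1, 447, 474 and 472 TPM in forebrain with IL-34, 441, 555 and 549 TPM in cerebellum with CSF-1 and 687, 676 and 612 TPM in cerebellum with IL-34. The difference sat in short transcripts. The protein-coding transcript of 3558 nt was even over the 12 libraries, 264 to 322 TPM. Transcripts under 1000 nt, chiefly a retained intron form of 723 nt and a nonsense-mediated decay form of 742 nt, summed to 22.0, 90.9 and 99.4 TPM in forebrain with IL-34 and 352, 326 and 237 TPM in cerebellum with IL-34. Summing only transcripts of 1000 nt or more turned the log2 difference to -0.15 (adjusted p = 0.081), and the 3558 nt transcript alone gave -0.093 (adjusted p = 0.282).

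Mcoln1, the calcium channel TRPML1, varied in the same way. Its 2065 nt coding transcript lay at 96.9 to 113 TPM, while its transcripts under 1000 nt summed to 50.3, 68.4 and 0 TPM in forebrain with CSF-1, 4.13, 44.3 and 57.6 TPM in forebrain with IL-34, 6.54, 78.9 and 94.1 TPM in cerebellum with CSF-1 and 63.0, 76.1 and 91.1 TPM in cerebellum with IL-34. The 3 libraries with the least (forebrain CSF-1 replicate 3, forebrain IL-34 replicate 1 and cerebellum CSF-1 replicate 1) are those with the highest length floor, 661 to 669 nt, and those that list Tyrobp at 0. Transcripts under 1000 nt held over 10% of the TPM of 7 members, which were Cln3, Tpp1, Mcoln1, Dpp7, Arsa, Grn and Fuca1.

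For Cd68 the 2 most abundant transcripts moved in opposite directions. The 1230 nt transcript stood at 2014 to 2528 TPM in the other 9 libraries and at 2919, 2973 and 2996 TPM in cerebellum with IL-34. The 1008 nt transcript stood at 153 to 793 TPM and at 57.0, 68.4 and 104 TPM in the same groups. Both are annotated as coding, and the table does not show how reads were divided between them. Their sum moved less than either, and the 1230 nt transcript alone gave a log2 difference of 0.34 ± 0.073 between ligands in cerebellum (SE; limma adjusted p = 0.0230). In forebrain it was at 2233, 2356 and 2014 TPM with CSF-1 and 2196, 2162 and 2218 TPM with IL-34, which overlap, and its log2 difference was -0.0030 (limma adjusted p = 0.998). A processed transcript of 612 nt also enters the gene's sum. It was at 49.9, 196 and 22.0 TPM in cerebellum with IL-34 and 0 to 26.1 TPM in the other 9 libraries.

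For Npc2, Hexa and Gla a single coding transcript, of 3299, 1996 and 3172 nt, carried all of the TPM, so no shift between transcripts enters their sums. In Tfeb the main coding transcript of 2342 nt was at 36.7 to 40.2 TPM in the 6 forebrain libraries and 47.5 to 51.6 TPM in the 6 cerebellar libraries, with no overlap. Fitted alone, a setting chosen after the data were seen, it differed by 0.33 ± 0.053 with CSF-1 (SE; limma adjusted p = 0.00743) and by 0.32 ± 0.053 with IL-34 (SE; limma adjusted p = 0.00486). Summed over transcripts of 1000 nt or more, the Tfeb difference with IL-34 was 0.21 and was not called (limma adjusted p = 0.083). The main Mitf transcript of 4881 nt was at 13.5 to 15.6 TPM in forebrain and 16.7 to 21.3 TPM in cerebellum. For Gaa the 3363 nt transcript was at 39.7 to 54.2 TPM in forebrain and 65.6 to 84.7 TPM in cerebellum, with no overlap. The 3633 nt transcript was at 35.5 to 50.5 and 44.4 to 52.5 TPM. Its regions overlapped with IL-34 but not with CSF-1, where it was at 35.5 to 42.8 and 44.7 to 48.2 TPM.

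**Figure D4:**
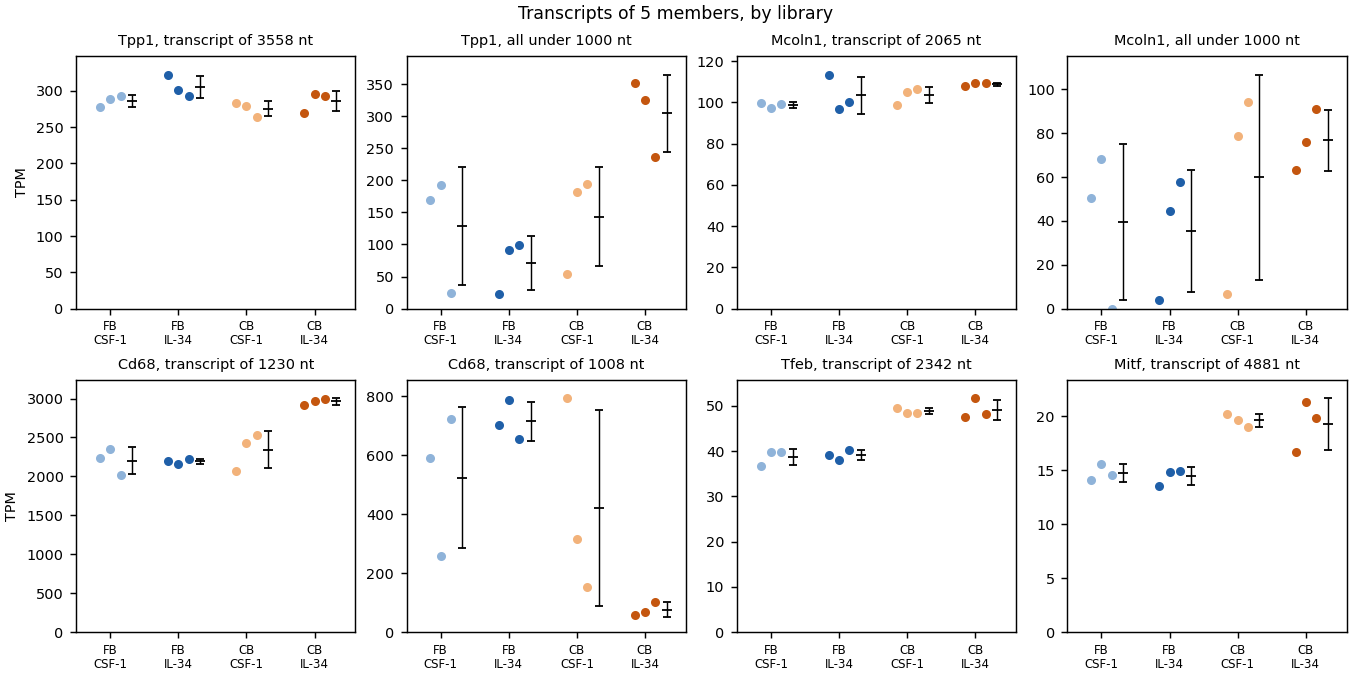
TPM of single transcripts, or of all transcripts under 1000 nt together, of 5 members in each library, on axes that start at 0, with mean ± SD (n = 3). The long Tpp1 and Mcoln1 transcripts are even while their short ones vary widely, and the main Tfeb and Mitf transcripts are higher in cerebellum.

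Other parts of the lysosomal system were read from lists beside the members. Averaged over both regions, 7 of 13 cathepsins and legumain rose with IL-34 and 0 fell, with a median log2 difference of 0.14. Ctss, a cathepsin of antigen presentation, rose by 0.27 ± 0.027 (SE; limma adjusted p = 0.000223). Ctsh and Ctsl also rose, by 0.27 and 0.30 on the log2 scale. In the V-ATPase, the proton pump that acidifies the lysosome, 3 of 17 subunits rose and 0 fell. Atp6v0d2, an alternative subunit of macrophages and osteoclasts, had the largest difference, 0.72 ± 0.076 (SE; limma adjusted p = 0.000332). Between the regions, 1 of the 13 cathepsins and legumain was higher and 3 lower in cerebellum with CSF-1, and 1 higher and 5 lower with IL-34. Of all genes, 3.29% were higher and 3.42% lower with CSF-1, and 5.27% higher and 8.22% lower with IL-34.

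Of 22 other lysosomal enzymes and transporters, 1 rose with IL-34 (Cd63, log2 difference 0.30) and 1 fell (Pla2g4a, log2 difference -0.47), averaged over both regions. Limma called 0 of 9 genes of the mannose 6-phosphate route and sulfatase activation in that comparison. An unadjusted p under 0.05 was found for 0 of the 9, against 29.8% of all genes. Among them, Sorl1, a sorting receptor, was 1.38 higher on the log2 scale in cerebellum with CSF-1 and 1.41 higher with IL-34, and Gnptab, which makes the mannose 6-phosphate tag, was 0.39 and 0.33 higher. Of 19 genes of the nutrient-sensing control of the MiT/TFE factors, 2 rose with IL-34 and 0 fell. Rragd, a small GTPase that recruits mTORC1 and these factors to the lysosome, rose by 0.33 ± 0.059 (SE; limma adjusted p = 0.0058), and Lamtor5 by 0.26. In autophagy 4 of 19 genes rose and 0 fell, among them Map1lc3b, an LC3 gene, by 0.36 ± 0.040 (SE; limma adjusted p = 0.000402). Sqstm1, the cargo receptor p62, was 0.45 higher in cerebellum with CSF-1 and 0.31 higher with IL-34. In the mean of both regions, 2.73% of all genes were called higher with IL-34 and 10.7% lower, beside which these counts stand. Calls in these lists were not followed through the other settings. Genes under 1000 nt had a median log2 difference of 0.106 in that mean, and the part of short transcripts in these calls was not tested.

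**Figure D5:**
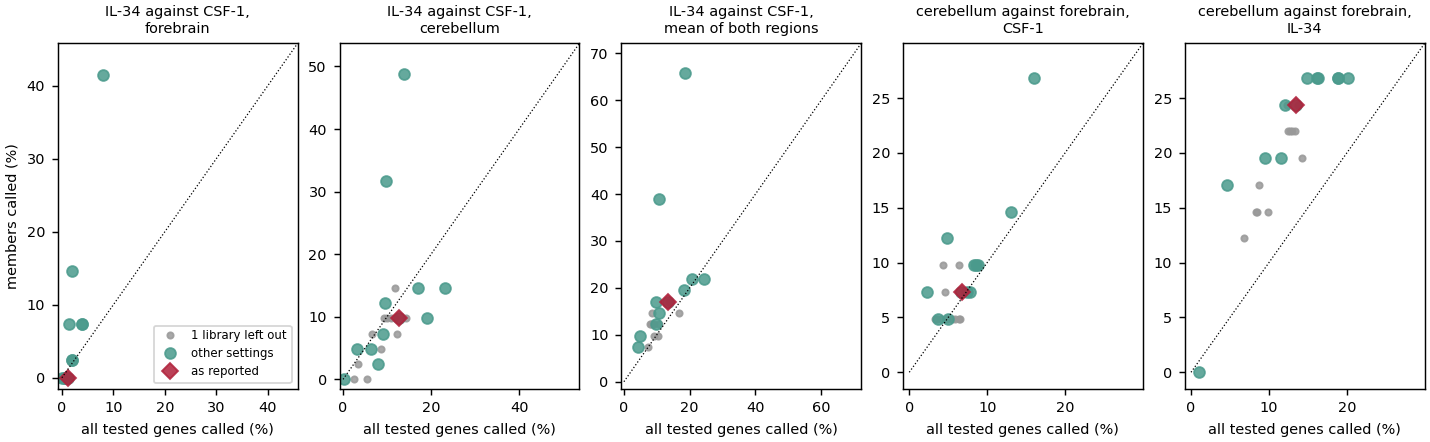
Percent of the 41 members called against percent of all tested genes called, for each setting (green), each fit with 1 library left out (grey) and the reported fit (red diamond), in 5 comparisons, with a dotted line of equality. Between ligands the number of members called ranges from 0 to 17 in forebrain and from 0 to 20 in cerebellum, and for cerebellum against forebrain with IL-34 all points but the length floor lie above the line.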

How the data were processed

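RNA was measured in 12 libraries, 3 in each of 4 groups. The authors deposited TPM values for each transcript, made with kallisto 0.43.0 on GRCm38 per the submitters' processing notes, with the library kit SMART-Seq v4 Ultra Low Input per the labels' protocols. Neither an annotation release nor a bias correction is named there. The labels' extraction protocol names human tissue, whereas organism, cell type and source are mouse. TPM keeps no read depth, so precision rests on the spread between libraries. kallisto shares reads among near-identical transcripts, and the kit does not mark strand.

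TPM was summed per gene over 115879 transcripts. Lengths came from GENCODE M21 on GRCm38, which held 98.6% of them. Values of log2(TPM + 1) were fitted by limma 3.58.1 (R 4.3.3) to the means of 4 groups with a trended variance and 8 residual degrees of freedom. Genes needed 1 TPM in 3 or more libraries, which left 12419, and p-values (two-sided) were adjusted over all of these by the Benjamini-Hochberg method in each of 6 contrasts. A gene was called at an adjusted p under 0.05. The log scale understates changes of low genes. The script was tested on simulated data. No 2 libraries held identical values.

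Members and lists were chosen with earlier results of these data known. Per-library values are given for members called in at least 1 contrast, for the MiT/TFE factors and for the highest member of each class. The other lists are given as counts with at most 3 names from each list, taken from the smallest p in a contrast. Alternatives covered the pseudocount (0.1), filters (none, or a mean of 5 TPM), scaling, transcripts of 1000 nt or more, length and GC trends (lowess, span 0.3), the length floor, library weights, the replicate number, the libraries fitted and leaving out each library. The most abundant transcript alone was fitted as a setting chosen after seeing the data. Promoter windows were from RefSeq, and no protein sequence was used here.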

Additional observations from a re-analysis of the deposited data

How the results depend on the processing

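Counts of called members depended on scaling and on the length floor more than on the pseudocount, with which every count was the same. Between ligands in forebrain the count of 0 became 1 with a mean of at least 5 TPM, 6 with median-of-ratios scaling, 3 with quantile normalization, 3 with transcripts of 1000 nt or more, 17 with length and GC trends also removed, 1 with the length floor as a covariate and 3 with library weights, and stayed 0 without each library. These calls were all higher with IL-34, and in that order took 2.44, 14.6, 7.32, 7.32, 41.5, 2.44 and 7.32% of the members. Of all genes, 0.715, 1.13, 0.701, 1.28, 4.15, 0.644 and 0.95% were called higher. In cerebellum the count of 4 became 2 without a filter, 13 with median-of-ratios scaling, 20 with trends removed, 0 with the length floor and 2 with only the 2 groups compared, and lay between 0 and 6 without each library. In that order of settings, 4.88, 31.7, 48.8, 0 and 2.44% of the members were higher, against 0.754, 5.54, 6.6, 0.153 and 1.52% of all genes. Lower were 0, 0, 0, 0 and 2.44% of the members, against 2.49, 4.13, 7.29, 0.145 and 4.74%. For the mean of both regions 7 became 3 without a filter, 16 with median-of-ratios scaling, 27 with trends removed and 4 with the length floor, and lay between 3 and 7 without each library. In that order of settings, 7.32, 39, 65.9 and 9.76% of the members were higher, against 0.852, 5.66, 9.23 and 1.55% of all genes. None was lower, against 3.47, 5.06, 9.26 and 3.44% of all genes. All members called under median-of-ratios scaling or with trends removed in these 3 comparisons were higher with IL-34, and the cause was not tested. Between regions with CSF-1, 3 became 6 with transcripts of 1000 nt or more, 11 with trends removed and 5 with the most abundant transcript alone, and lay between 2 and 4 without each library. In that order of settings, 9.76, 14.6 and 7.32% of the members were higher in cerebellum, against 6.73, 6.98 and 2.02% of all genes. Lower were 4.88, 12.2 and 4.88% of the members, against 6.3, 8.99 and 2.83%. With IL-34, 10 became 0 with the length floor, and lay between 5 and 10 without each library. The Tpp1 difference between regions with IL-34 reversed to -0.15 with transcripts of 1000 nt or more, -0.090 with trends removed and -0.093 with the most abundant transcript alone, since the transcripts under 1000 nt are then left out. The interaction count was 0 throughout.

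The replicate block gave counts of 0 in forebrain, 1 in cerebellum, 5 for the mean of both regions, 0 for the interaction, 2 between regions with CSF-1 and 8 with IL-34. In that order, 0, 2.44, 12.2, 0, 4.88 and 12.2% of the members were higher, against 0.25, 2.05, 2.09, 0.113, 2.24 and 4.42% of all genes. Lower were 0, 0, 0, 0, 0 and 7.32% of the members, against 0.419, 5.89, 7.78, 0.0161, 2.7 and 7.16%. The numbers were not taken to pair the libraries, since same-numbered libraries correlated between -0.454 and 0.458, only 5 of 18 such pairs over 0.1, and 2 of 12 libraries correlated best with their own number. With read depth unknown, no limit from counting can be given, and Sgsh, at 9.05 to 13.4 TPM, is the member nearest the low end.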
